A study of Caenorhabditis elegans with 16 samples.

Results

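Whole-body RNA of germline-less glp-1 worms fed mxl-2 RNAi was set against the same strain fed Luc RNAi, the control. The members were the 4 libraries labelled mxl-2 RNAi and the 4 labelled Luc with the glp-1 genotype, 8 of the 16 libraries in the series, and all genes in them with a mean of at least 1 RPKM (reads scaled to counted length and to library size). The study asks, per its title and design text, what the loss of MML-1 or MXL-2 in neurons does in long-lived worms without a germline. The groups used here are as follows. Libraries labelled mxl-2 RNAi and libraries labelled mml-1 RNAi came from strain SHU47, whose genotype is given as glp-1 in the TU3401 background. The Luc control of glp-1 worms came from the same strain, and a last group was TU3401 itself on Luc RNAi, shown for its level only. Every group held 4 libraries of whole bodies at adult day 1, and all animals ate HT115 bacteria that carried L4440. TU3401, as known from the field, has no working SID-1, the channel that lets double-stranded RNA into cells, except in neurons, where a transgene under the unc-119 promoter restores it, so that all 4 groups share this background and RNAi by feeding acts mainly in neurons. The labels name no glp-1 allele and do not say whether the numbered libraries came from separate cultures, so p-values here cover just the spread from library to library, and that may be technical.

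MXL-2 is the worm counterpart of Mlx, a basic helix-loop-helix leucine zipper protein that binds DNA as the partner of MML-1, the Mondo protein of the worm. In mammals the Mondo and Mlx pair turns on genes of sugar and lipid metabolism when glucose phosphates accumulate. In worms both partners are needed for the long life of animals that have lost their germline, and HLH-30, the worm TFEB, acts with them on autophagy and lysosomes.

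Reads of the target gene were not lower. The gene mxl-2, on chromosome III (186949 to 188131), reached 29.3, 90.7, 733 and 47.4 RPKM under the mxl-2 RNAi label, replicates 1 to 4, against 24.5, 30.3, 20.99 and 22.9 RPKM in the Luc control. Each of the 4 pairs was higher, the ranges overlapped, and replicate 3 stood far above the others. The log2 fold change of 1.97 (SE 0.79) did not pass the test (adjusted p = 0.318), and this value goes against the direction that the label implies. Whether these reads include RNA of the feeding bacteria, and whether every library carries its right label, was not tested, so the value is no measure of how far the RNAi worked. The partner gene mml-1 stood at 37.3, 15.9, 9.81 and 11.7 RPKM, against 35.2, 23.95, 11.9 and 11.2 RPKM in the control (log2 fold change -0.17, SE 0.13, adjusted p = 0.554). The groups are therefore named by their labels below.

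The recovered totals were 19242986 to 24315411 reads in the libraries labelled mxl-2 RNAi and 21303724 to 27228111 in the Luc control. No tested marker gene of the tissues listed was called, but 4 of 10 germline and oocyte markers, 1 of 4 hypodermis markers and 0 of 4 sperm markers were abundant enough to be tested. The 10 germline and oocyte markers summed to 12.596 to 22.2 RPKM under mxl-2 RNAi and 13.4 to 20.6 RPKM in the control, against 6421 to 6697 RPKM in TU3401, which has a germline. The 8 neuron markers summed to 632 to 709 RPKM and 647 to 833 RPKM, the 6 intestine markers to 652 to 1141 RPKM and 656 to 1151 RPKM, and the 4 hypodermis markers to 1018 to 1276 RPKM and 804 to 1107 RPKM. The sums of the 2 coelomocyte markers, 19.99 to 24.8 RPKM under mxl-2 RNAi and 26.1 to 29.8 RPKM in the control, did not overlap, nor did those of the 3 pharynx markers, 43.4 to 46.7 RPKM and 47.1 to 54.9 RPKM. The lowest adjusted p of a single marker was 0.155 and 0.388 in these 2 sets. Sums overlapped for the 5 body muscle markers, 3429 to 3900 RPKM and 3404 to 3702.5 RPKM. They also overlapped for the 4 somatic gonad markers, 48.9 to 61.0 RPKM and 55.9 to 61.2 RPKM. The part of these tissues in the results was not tested. Of the 4 sperm markers 1 was at 0 in all 8 libraries. In RNA of whole bodies, fewer cells of a type and less RNA per cell cannot be told apart.

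A small set of genes changed, among them ugt-41, ugt-12, gst-14 and cyp-34A8 of detoxification families and many genes that carry sequence names alone. Of 12581 genes tested in limma on log2(RPKM + 1) with the replicate number as block, 24 (0.191%) passed a Benjamini-Hochberg adjusted p of 0.05, which is what "called" means here. Of these, 8 were higher (0.0636%) and 16 were lower (0.127%) in the libraries labelled mxl-2 RNAi. All 24 moved the same way in 4 of 4 pairs, against 11.7% of all genes that were higher and 13.2% that were lower in 4 of 4 pairs. In 5 of the 8 and 13 of the 16 the ranges of both groups were apart, which held for 2.15% of all genes in the higher and 1.97% in the lower direction. The test that picked the 24 used these same libraries and pairs. Both contrasts with all genes are therefore in large part built in and add no separate support. The change was at least 2-fold on the log2 scale for 3 of the 8 and 12 of the 16. Over all genes the log2 fold change had a median of 0.00037.

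The number of calls rests on single pairs and on the block. Without the pair numbered 3 no gene passed (0 higher and 0 lower), without pair 2 the counts were 2 and 3, and without pair 4 they were 50 and 36. Without the block 2 were higher and 11 lower. None of the 24 changed direction in any of these fits in which it was tested. Many genes stood just past the threshold: 36 had an adjusted p of 0.05 to 0.055, and 240 (1.91%), 99 higher and 141 lower, had one under 0.1. Of the 65 genes named in the text that were not called, 37 passed in at least 1 of 3 other fits that keep the block: 36 with voom on the recovered reads, 26 in 1 fit of all 12 glp-1 libraries and 20 with a floor of 5 on the mean RPKM. Among these were glt-5, gfat-1, mlt-7 and acdh-1, with voom adjusted p of 0.0195, 0.00813, 0.0127 and 0.0114 in that order.

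**Figure D1:**
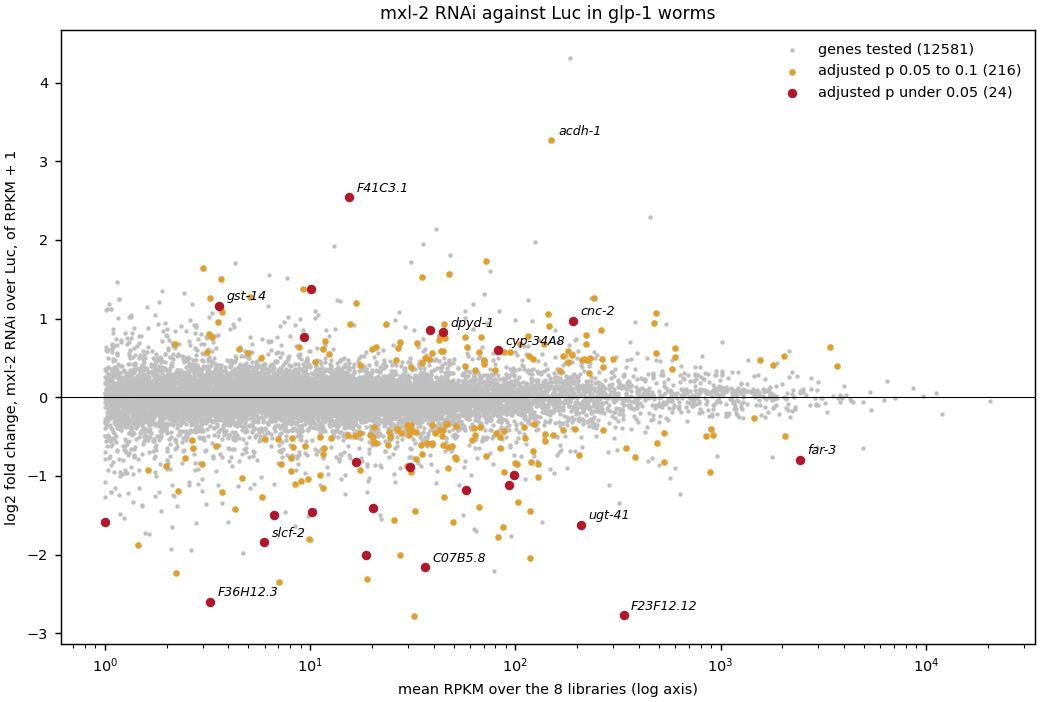
Log2 fold change of mxl-2 RNAi over Luc on the log2(RPKM + 1) scale (vertical axis) against the mean RPKM over the 8 libraries (horizontal log axis) for the 12581 genes tested. The 24 called genes are red and the 216 with an adjusted p of 0.05 to 0.1 are orange; the called genes lie between a mean of 1.005 RPKM (21ur-13915) and 2426 RPKM (far-3), and acs-2, at 4.31, is the highest grey point.

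The lower genes include a solute carrier and enzymes that attach sugars to small molecules. The gene slcf-2 (chromosome X, 3393862 to 3397657), named for the solute carrier family, stood at 2.17, 2.33, 1.56 and 2.19 RPKM under the mxl-2 RNAi label, against 10.5, 9.43, 10.02 and 9.68 RPKM in the Luc control. The libraries within each group lay close together and the groups were far apart. The gene fell by 1.84 on the log2 scale (SE 0.11, adjusted p = 0.0138, the lowest reached, shared with ugt-41), passed in 12 of 14 alternative fits, and stood at 1.3 ± 0.334 RPKM in TU3401 (SD, n = 4). It shares a stretch of the genome with cht-1 on the opposite strand, and whether the counting kept the strand is not stated. The reads of cht-1 itself had a log2 fold change of 0.39 (SE 0.34, adjusted p = 0.618).

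UDP-glucuronosyl transferases join glucuronic acid or other sugars to lipophilic compounds and so make them soluble. Of 57 tested members of this family, 2 were called lower and 0 higher, where 0.127% of all genes were called lower and 0.0636% higher. With an adjusted p under 0.1 the family had 8 lower members and 1 higher one, where all genes had 1.12% and 0.787%. The first, ugt-41 (chromosome V, 7161068 to 7163595), stood at 119.1, 72.7, 113 and 105 RPKM under the mxl-2 RNAi label, against 402, 255, 334 and 272 RPKM in the control. Every library of the mxl-2 RNAi group was below every control library, and ugt-41 fell by 1.62 on the log2 scale (SE 0.09, adjusted p = 0.0138). The second, ugt-12 (chromosome V, 4887165 to 4889629), stood at 28.7, 33.7, 29.3 and 46.9 RPKM, against 57.1, 75.1, 89.6 and 97.2 RPKM in the control. These groups did not overlap either, and ugt-12 fell by 1.18 (SE 0.11, adjusted p = 0.0338). Members of this family resemble each other in sequence, and reads could be split between them. The family as a whole had a median log2 fold change of 0.0029. In 4 of 4 pairs 15 members (26.3%) were lower and 6 (10.5%) higher, against 13.2% and 11.7% of all genes. Beyond the called members, ugt-32 stood at 6.27 ± 4.49 RPKM under mxl-2 RNAi and 31.5 ± 9.8 RPKM in the control (adjusted p = 0.0706), ugt-25 at 24.8 ± 7.11 and 74.95 ± 11.7 RPKM (0.0548), and ugt-27 at 5.44 ± 1.1 and 12.5 ± 2.58 RPKM (0.0548; SD, n = 4 each), and none of them passed. Members on the other side were ugt-37 at 4.08 ± 3.2 RPKM under mxl-2 RNAi and 0.763 ± 0.275 RPKM in the control (log2 fold change 1.32, adjusted p = 0.172), ugt-33 at 5.26 ± 4.89 and 1.41 ± 0.304 RPKM (0.243), and ugt-16 at 5.02 ± 2.21 and 2.12 ± 1.01 RPKM (0.0949; SD, n = 4 each), higher in 4 of 4 pairs each and not called.

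Other lower genes encode a fatty acid carrier, a collagen and a beta-lactamase-like protein. The gene far-3 (chromosome V, 12996787 to 12997522) encodes a fatty acid and retinol binding protein, a secreted lipid carrier, and stood at 1619, 1841, 2140 and 1528 RPKM under the mxl-2 RNAi label, against 2725, 3206, 3348 and 3000 RPKM in the control. The groups did not overlap and far-3 fell by 0.79 on the log2 scale (SE 0.06, adjusted p = 0.0242). It was the most abundant of the called genes, and its level in TU3401 was 59.9 ± 30.1 RPKM (SD, n = 4). The cuticle collagen gene col-36 (chromosome II, 7167511 to 7168812) stood at 0.869, 3.04, 3.83 and 3.99 RPKM, against 4.27, 7.25, 13.99 and 16.38 RPKM, and fell by 1.49 (SE 0.14, adjusted p = 0.0338). The level of col-36 varied widely by number in both groups, while the pairs differed alike. The gene lact-8 (chromosome V, 11091016 to 11093607) stood at 9.98, 13.2, 9.96 and 14.4 RPKM, against 20.1, 22.6, 20.7 and 22.7 RPKM, without overlap, and fell by 0.82 (SE 0.09, adjusted p = 0.0466).

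The other 9 coding genes that fell carry sequence names in the files. On the log2(RPKM + 1) scale the largest fall was that of F23F12.12 (chromosome III, 6508132 to 6509499). It stood at 112.02, 65.1, 53.9 and 125 RPKM under the mxl-2 RNAi label, against 732, 660, 485 and 469 RPKM in the control. The groups stood far apart, with a log2 fold change of -2.77 (SE 0.24, adjusted p = 0.0361), and the TU3401 level was 86.4 ± 26.3 RPKM (SD, n = 4). F36H12.3 (chromosome IV, 5272818 to 5274156) was listed at 0, 0.0516, 0 and 0.594 RPKM, against 2.52, 6.73, 8.22 and 7.94 RPKM, which is 14 reads over the mxl-2 RNAi group and 626 over the control group. That gene fell by 2.60 (SE 0.24, adjusted p = 0.0338), and on the opposite strand it overlaps F36H12.17, whose log2 fold change was 0.02. C07B5.8 (chromosome X, 9536661 to 9536765) stood at 25.4, 11.4, 7.05 and 9.21 RPKM, against 88.96, 67.9, 45.9 and 35.7 RPKM, and fell by 2.16 (SE 0.16, adjusted p = 0.0235).

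The gene T22B7.3 (chromosome X, 5647373 to 5650218) stood at 11.9, 4.04, 3.88 and 9.27 RPKM under the mxl-2 RNAi label, against 42.5, 25.7, 24.2 and 27.8 RPKM in the control, and fell by 2.004 on the log2 scale (SE 0.18, adjusted p = 0.0338). D2023.1 (chromosome V, 11789550 to 11800544) stood at 14.3, 8.49, 8.13 and 10.6 RPKM, against 48.8, 24.2, 24.9 and 22.8 RPKM, and fell by 1.41 (SE 0.12, adjusted p = 0.0271). In both genes the groups did not overlap and the number 1 library was the highest of each group. F44E7.2 (chromosome V, 5765127 to 5771768), which the annotation calls pgph-2 after phosphoglycolate phosphatase, stood at 68.9, 49.4, 61.9 and 55.2 RPKM, against 130, 138, 113 and 130 RPKM, and fell by 1.11 (SE 0.12, adjusted p = 0.0416). Its groups did not overlap. The last 3 of the 9 overlapped between groups while every pair was lower. C14F11.6 had means of 5.24 ± 3.2 RPKM under mxl-2 RNAi and 15.2 ± 6.72 RPKM in the control, with a log2 fold change of -1.46. F45D3.3 had 66.7 ± 28.3 and 131 ± 56.9 RPKM (-0.98), and ZK355.8 had 21.2 ± 10.9 and 40.2 ± 18.8 RPKM (-0.89; SD, n = 4 each; adjusted p of 0.0416, 0.0466 and 0.046 in that order). The lower locus that encodes no protein, the piRNA locus 21ur-13915, held 0 reads over the 4 libraries labelled mxl-2 RNAi and 4 reads over the control, and lies inside flp-17.

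Among the higher genes, F41C3.1 (chromosome II, 4752307 to 4752991) changed most. It stood at 28.6, 33.98, 33.1 and 13.5 RPKM under the mxl-2 RNAi label, against 2.65, 4.62, 4.23 and 3.11 RPKM in the control. Every mxl-2 RNAi library was above every control library, replicate 4 by the least, and the gene rose by 2.54 on the log2 scale (SE 0.2, adjusted p = 0.0242). F49F1.5 (chromosome IV, 4119460 to 4120415) stood at 8.03, 29.7, 8.84 and 13.9 RPKM, against 2.72, 10.996, 2.97 and 4.02 RPKM. Replicate 2 was the highest library of both groups, so the groups overlapped, and the gene rose by 1.38 (SE 0.09, adjusted p = 0.0159, but 0.588 without the block). C35A5.3 (chromosome V, 10499355 to 10501395) stood at 48.2, 38.4, 53.2 and 58.3 RPKM, against 27.4, 20.5, 27.7 and 32.3 RPKM, without overlap, and rose by 0.85 (SE 0.07, adjusted p = 0.0235).

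Enzymes that modify or break down small molecules were among the higher genes too. Glutathione S-transferases join glutathione to reactive compounds, and gst-14 (chromosome II, 13614781 to 13616100) stood at 8.14, 5.17, 4.55 and 3.64 RPKM under the mxl-2 RNAi label, against 2.6, 2.44, 1.27 and 1.04 RPKM in the control. The groups did not overlap and gst-14 rose by 1.17 on the log2 scale (SE 0.12, adjusted p = 0.0424). The cytochrome P450 gene cyp-34A8 (chromosome V, 3964797 to 3967823) stood at 92.3, 106, 99.3 and 101 RPKM, against 61.6, 71.7, 62.1 and 65.9 RPKM, and rose by 0.60 (SE 0.06, adjusted p = 0.0413). The gene dpyd-1 (chromosome X, 5467870 to 5472683), which encodes dihydropyrimidine dehydrogenase, the first enzyme of pyrimidine breakdown, stood at 58.5, 66.1, 51.9 and 51.6 RPKM, against 31.3, 34.3, 27.8 and 33.3 RPKM. Neither cyp-34A8 nor dpyd-1 overlapped between groups, and dpyd-1 rose by 0.83 (SE 0.08, adjusted p = 0.0338). The caenacin gene cnc-2 (chromosome V, 1449665 to 1450183), of a family of antimicrobial peptides made in the epidermis, stood at 553, 127, 198 and 150 RPKM, against 246, 62.5, 91.6 and 98.3 RPKM. Replicate 1 was far above the rest in both groups, which overlapped, and cnc-2 rose by 0.97 (SE 0.1, adjusted p = 0.0424, but 0.862 without the block). The pseudogene F21C10.17, which lies within F21C10.3 on the same strand, averaged 12.02 ± 4.88 RPKM against 6.58 ± 2.46 RPKM (SD, n = 4 each) and completes the 8 higher loci.

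**Figure D2:**
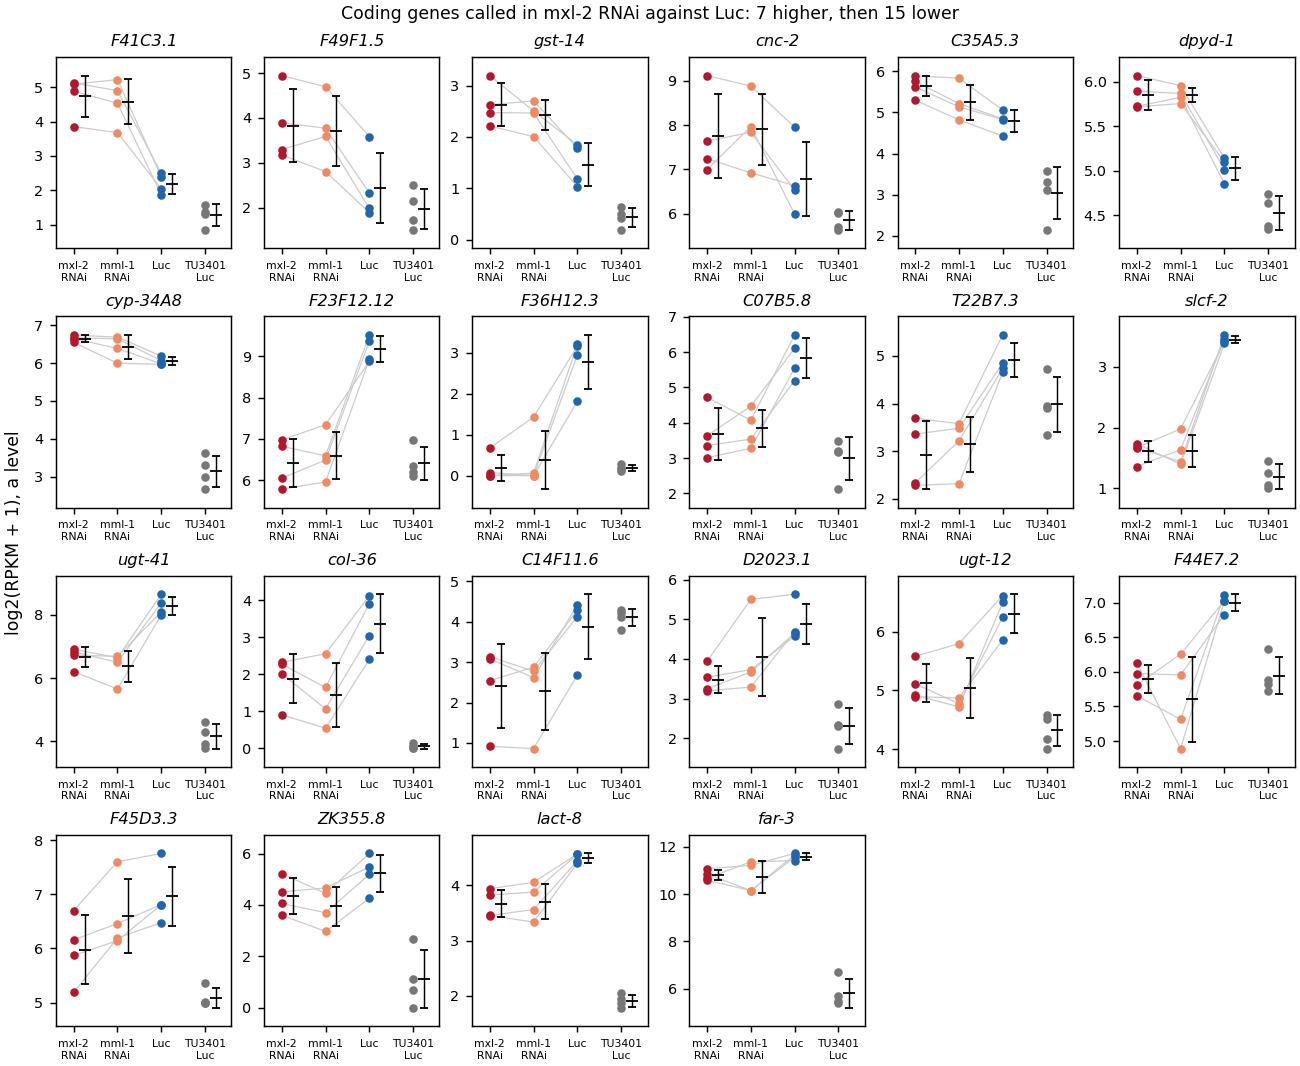
Levels of the 22 called coding genes as log2(RPKM + 1) under the mxl-2 RNAi label, mml-1 RNAi, Luc in glp-1 and TU3401 on Luc, 1 point per library, with the mean and SD at the right of each group and grey lines joining libraries of the same number. The 7 higher genes come first, from F41C3.1 to cyp-34A8, then the 15 lower ones, from F23F12.12 to far-3; slcf-2 shows tight groups, while cnc-2 and F49F1.5 overlap between groups but shift in every pair.

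By position, chromosome V held 10 of the 22 coding ones (45.5%), against 20.4% of the coding genes tested, chromosome X held 5 (22.7%, against 15.5%), and chromosome I held 0 (against 15.5%). Several had close relatives within 5000 bp. Beside F49F1.5, F49F1.7 averaged 72.7 ± 36.4 RPKM under mxl-2 RNAi and 22.2 ± 4.53 RPKM in the control, and F49F1.1 averaged 60.004 ± 22.1 and 30.1 ± 8.16 RPKM (SD, n = 4 each; both adjusted p = 0.0548). Beside gst-14, all 4 tested relatives had a positive log2 fold change, from 0.27 in gst-15 to 1.26 in gst-20 (adjusted p = 0.0914), with gst-24 at 0.58 (0.0548). Beside cnc-2, cnc-4 had 0.95 (adjusted p = 0.0706) and cnc-3 had 0.48, while cnc-5 had -0.29 with an SE of 0.44.

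Not all relatives moved alike. Next to cyp-34A8, cyp-34A10 had a log2 fold change of 1.65 (adjusted p = 0.0986) and cyp-34A9 of 0.86, while cyp-34A7 had -0.26 and cyp-34A6 had 0.04. Next to far-3, which fell, far-4 and far-5 had 0.38 and 0.48 and were higher in 4 of 4 pairs, though neither passed (adjusted p of 0.36 and 0.145). The gene far-5 overlaps far-3 on the opposite strand. Next to F44E7.2, C53A3.2, called pgph-3 in the annotation, averaged 36.4 ± 7.37 RPKM under mxl-2 RNAi and 127 ± 30.2 RPKM in the control (SD, n = 4 each; adjusted p = 0.0548). F23F12.3 ends 60 bp before F23F12.12 on the same strand and had a log2 fold change of -0.85 (adjusted p = 0.0548), and ugt-11 beside ugt-12 had -0.58 (0.0738). Beside ugt-41, which fell, ugt-36 had 0.32 and was higher in 3 of 4 pairs, and ugt-39 had -0.21 and was lower in 3 of 4 pairs (adjusted p of 0.418 and 0.475).

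**Figure D3:**
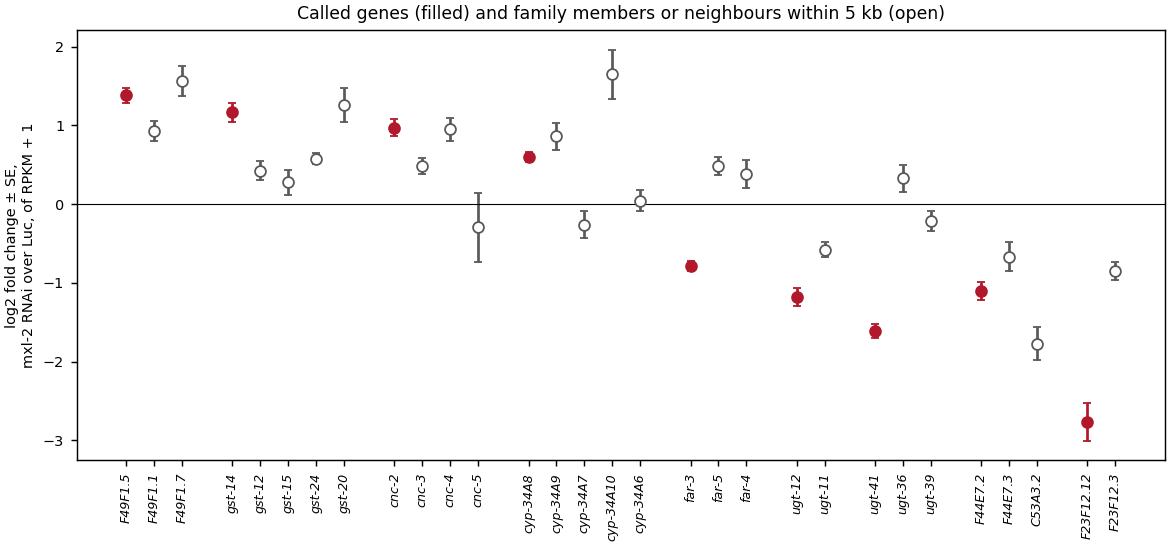
Log2 fold change of mxl-2 RNAi over Luc with its SE (vertical axis) for 9 called genes (filled red points) and, to the right of each, chosen neighbours within 5000 bp (open points). The relatives of F49F1.5, gst-14, ugt-12 and F44E7.2 lie on the same side of 0 as the called gene, while far-4 and far-5 lie on the other side from far-3 and ugt-36 on the other side from ugt-41.

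The libraries labelled mml-1 RNAi allow a side-by-side reading, since MML-1 is the partner of MXL-2. Here too the target reads were not lower: mml-1 stood at 23.8, 91.5, 28.9 and 22.9 RPKM under the mml-1 RNAi label, against 35.2, 23.95, 11.9 and 11.2 RPKM in the Luc control. It was higher in 3 of 4 pairs (log2 fold change 0.88, SE 0.39, adjusted p = 0.312). The same libraries held 26.4, 26.98, 308 and 25.4 RPKM of mxl-2, with replicate 3 far above the rest. Both comparisons use the same 4 Luc libraries, so likeness between them is in part built in. Against Luc, slcf-2 had a log2 fold change of -1.84 under mxl-2 RNAi and -1.83 under mml-1 RNAi, ugt-41 had -1.62 and -1.91, F23F12.12 had -2.77 and -2.58, and F41C3.1 had 2.54 and 2.39. For dpyd-1 the values were 0.83 and 0.83 and for F49F1.5 they were 1.38 and 1.27. Other called genes were less alike: D2023.1 had -1.41 and -0.84, F45D3.3 had -0.98 and -0.36, C35A5.3 had 0.85 and 0.46, and ZK355.8 had -0.89 and -1.29. Against the same control, 60 of 12591 genes (0.477%) were called under mml-1 RNAi, 14 higher and 46 lower (2 without the block).

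Setting the libraries labelled mxl-2 RNAi against those labelled mml-1 RNAi, without the control, no gene was called: 0 of 12540 tested (0.0%), with 872 (6.95%) at an unadjusted p under 0.05 and a lowest adjusted p of 0.527. Of the coding genes called against Luc, 1 of the 7 higher and 3 of the 14 lower ones tested here were among those 872. Counts of 0 were also reached in each of the 14 alternative fits, voom on recovered reads included. Some differences could still be bounded. For slcf-2 the 95% interval of the log2 difference between mxl-2 RNAi and mml-1 RNAi ran from -0.38 to 0.38, and for dpyd-1 from -0.14 to 0.14. For C35A5.3 and F45D3.3, picked after their values were seen, the interval excluded 0. For C35A5.3 it ran from 0.16 to 0.63, with 49.5 ± 8.46 RPKM under mxl-2 RNAi and 38.4 ± 12.4 RPKM under mml-1 RNAi, and for F45D3.3 from -0.997 to -0.24, with 66.7 ± 28.3 and 106 ± 59.05 RPKM (SD, n = 4 each). These intervals are not adjusted for the number of genes.

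The title of the study names a glutamate transporter, peroxidase and autophagy, and those genes were read next. None of the 24 tested genes of glutamate transport and metabolism was called, where 0.191% of all genes were. With an adjusted p under 0.1 this list had 1 higher member and 2 lower ones, where all genes had 0.787% and 1.12%. The transporter gene glt-5 (chromosome II, 9706481 to 9708885) stood at 2.26, 3.2, 2.06 and 4.65 RPKM under the mxl-2 RNAi label, against 6.14, 11.2, 9.16 and 7.99 RPKM in the control. The groups did not overlap, and the log2 fold change of -1.27 (SE 0.19) missed the threshold (adjusted p = 0.0665). The gene gfat-1 (chromosome II, 11592392 to 11595418) encodes glutamine-fructose-6-phosphate aminotransferase, which uses glutamine to start hexosamine synthesis, and stood at 32.01, 43.7, 36.5 and 77.4 RPKM, against 162, 209, 213 and 169 RPKM. Its groups lay far apart, with a log2 fold change of -2.04 (SE 0.24, adjusted p = 0.0548, and 0.0409 without the block). The glutamate dehydrogenase gene gdh-1 averaged 708 ± 77.5 RPKM under mxl-2 RNAi and 498 ± 48.2 RPKM in the control, without overlap (adjusted p = 0.0738), and the transporter gene glt-1 averaged 258 ± 11.7 and 228 ± 8.98 RPKM (SD, n = 4 each; adjusted p = 0.232).

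Of 8 tested heme peroxidase genes 0 were called, where 0.191% of all genes were. With an adjusted p under 0.1 this list had 1 lower member and 0 higher ones, where all genes had 1.12% and 0.787%. The gene mlt-7 (chromosome II, 4393007 to 4404850), a peroxidase that cross-links cuticle at the moult, stood at 18.3, 22.8, 14.9 and 28.9 RPKM under the mxl-2 RNAi label, against 40.5, 37.7, 38.03 and 46.9 RPKM in the control. The groups did not overlap, with a log2 fold change of -0.95 (SE 0.12, adjusted p = 0.0548). The peroxidase gene skpo-3 averaged 46.1 ± 6.15 RPKM under mxl-2 RNAi and 47.3 ± 4.63 RPKM in the control (SD, n = 4 each; log2 fold change -0.04).

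Autophagy genes were called in 0 of 35 cases, where 0.191% of all genes were, and 0 had an adjusted p under 0.1. Their median log2 fold change was -0.05. In 4 of 4 pairs 7 (20.0%) were lower and 3 (8.57%) higher, against 13.2% and 11.7% of all genes. The TFEB gene hlh-30 averaged 68.3 ± 13.2 RPKM under mxl-2 RNAi and 70.6 ± 9.78 RPKM in the control, and lgg-1, whose product coats autophagosomes, averaged 1820 ± 325 and 1851 ± 309 RPKM (SD, n = 4 each). The members of lowest p were dct-1, the mitophagy receptor gene (log2 fold change -0.77, adjusted p = 0.103), and atg-2, needed for the growth of autophagosomes (-0.88, adjusted p = 0.166). Lysosome genes were called in 0 of 74 cases, where 0.191% of all genes were. With an adjusted p under 0.1 this list had 1 lower member, where 1.12% of all genes were lower. In 4 of 4 pairs 19 (25.7%) were higher and 19 (25.7%) lower, against 11.7% and 13.2% of all genes. Of the 9 genes of the Myc and Mondo network 0 were called, where 0.191% of all genes were. The Max-like gene mxl-3 had a log2 fold change of -0.69 (adjusted p = 0.211) and the Mad-like gene mdl-1 of -0.74 (adjusted p = 0.2), both lower in 4 of 4 pairs.

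Larger folds than those of most called genes stood among genes whose libraries varied too much to pass. The gene acs-2, which encodes an acyl-CoA synthetase that feeds fatty acids into oxidation and is known to rise on fasting, stood at 736, 368, 295 and 25.8 RPKM under the mxl-2 RNAi label, against 10.3, 29.6, 2.41 and 10.8 RPKM in the control. Replicate 4 was the lowest of the mxl-2 RNAi group and below control replicate 2, so the groups overlapped. The log2 fold change of acs-2 was 4.31 (SE 0.9, adjusted p = 0.127), and under mml-1 RNAi the gene stood at 739, 760, 461 and 36.8 RPKM, with replicate 4 lowest again. The alcohol dehydrogenase gene sodh-1 stood at 1011, 1273, 685 and 134 RPKM, against 180, 188, 62.7 and 92.9 RPKM (log2 fold change 2.296, adjusted p = 0.12). At the other end, F15E6.10 stood at 28.997, 3.57, 2.82 and 4.74 RPKM, against 85.8, 62.7, 39.1 and 29.4 RPKM (log2 fold change -2.78, adjusted p = 0.0665). These 3 genes were chosen after their values were seen, as were gdh-1, glt-1, ugt-16, ugt-25, ugt-27, ugt-32, ugt-33 and ugt-37. The same holds for hsp-3, hsp-4, pdi-2, metr-1, mthf-1, the propionate breakdown genes and the neighbours above.

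Propionate is broken down in worms through a pathway that needs vitamin B12, or, when that is short, through a shunt that starts with the acyl-CoA dehydrogenase ACDH-1. The gene acdh-1 (chromosome I, 6497436 to 6499560) stood at 198, 186, 297 and 384 RPKM under the mxl-2 RNAi label, against 67.02, 8.36, 23.7 and 30.5 RPKM in the control. The groups did not overlap, and the log2 fold change of 3.27 (SE 0.44) missed the threshold (adjusted p = 0.0665). The nuclear receptor gene nhr-68, which activates the shunt, averaged 71.04 ± 4.86 RPKM under mxl-2 RNAi and 45.3 ± 5.77 RPKM in the control (adjusted p = 0.0817), also without overlap. The B12-dependent branch had values near 0: mmcm-1, pcca-1 and pccb-1 had log2 fold changes of 0.01, -0.01 and 0.01, with SEs of 0.07, 0.06 and 0.06. Values of the later shunt enzymes are not given here, so acdh-1 and nhr-68 do not describe the shunt as a whole.

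Methionine is remade from homocysteine by the B12-dependent methionine synthase METR-1 with a methyl group supplied through MTHF-1, and SAMS-1 turns it into S-adenosylmethionine. Of 21 tested genes of this cycle and of one-carbon metabolism 0 were called, where 0.191% of all genes were. With an adjusted p under 0.1 this list had 2 higher members and 1 lower one, where all genes had 0.787% and 1.12%. The list also holds acdh-1, the shunt gene given above, which is 1 of the 2 higher members. The gene sams-1 stood at 99.5, 153, 172 and 159 RPKM under the mxl-2 RNAi label, against 68.1, 66.6, 95.4 and 110 RPKM in the control (log2 fold change 0.77, adjusted p = 0.0728). The gene metr-1 averaged 30.6 ± 8.01 and 61.8 ± 30.001 RPKM (adjusted p = 0.119), and mthf-1 averaged 53.2 ± 8.47 and 91.1 ± 21.1 RPKM (adjusted p = 0.0734; SD, n = 4 each), lower in 4 of 4 pairs each. Of these 3 genes, mthf-1 had groups that did not overlap.

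**Figure D4:**
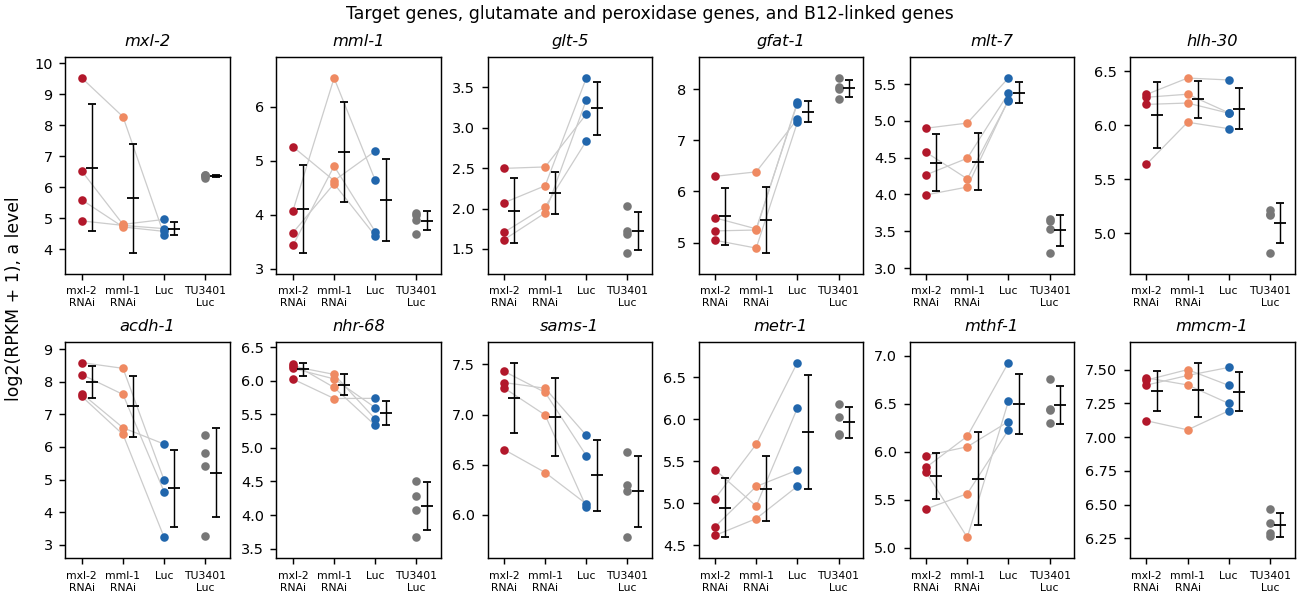
Levels as log2(RPKM + 1) of the target gene and its partner, of glutamate, peroxidase and TFEB genes, and of genes linked to vitamin B12, under the mxl-2 RNAi label, mml-1 RNAi, Luc in glp-1 and TU3401 on Luc, 1 point per library, with the mean and SD at the right of each group and grey lines joining the same number. The groups of glt-5, gfat-1, mlt-7, acdh-1, nhr-68 and mthf-1 do not overlap between mxl-2 RNAi and Luc, those of hlh-30 and mmcm-1 overlap, and mxl-2 stands highest in replicate 3.

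Some lists held many members that differed the same way in every pair by a small amount. Of 33 tested genes of the heat shock and unfolded protein response 0 were called, where 0.191% of all genes were. In 4 of 4 pairs 16 (48.5%) were lower and 1 (3.03%) higher, against 13.2% and 11.7% of all genes. The median log2 fold change of this list was -0.20. Its members of lowest p were crt-1, which encodes the calcium-binding chaperone calreticulin of the endoplasmic reticulum, at 705 ± 254 RPKM under mxl-2 RNAi and 991 ± 347 RPKM in the control (adjusted p = 0.0619), and hsp-43 at 260 ± 34.9 and 188 ± 32.8 RPKM (adjusted p = 0.0665; SD, n = 4 each). Other chaperone genes of the endoplasmic reticulum had log2 fold changes of -0.32 (hsp-3, a BiP), -0.35 (hsp-4, the other BiP) and -0.45 (pdi-2, a protein disulfide isomerase), each lower in 4 of 4 pairs and none past the threshold (adjusted p of 0.111, 0.167 and 0.0819). They were picked after their values were seen, and not all such members moved alike. Another protein disulfide isomerase gene of the list had log2 differences of -0.06, -0.02, 0.13 and 0.10 in pairs 1 to 4.

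Genes of the respiratory chain and ATP synthase stood on the other side. Of 36 tested, 0 were called, where 0.191% of all genes were. In 4 of 4 pairs 21 (58.3%) were higher and 0 lower, against 11.7% and 13.2% of all genes, and the median log2 fold change was 0.20. The median ran from 0.02 in pair 4 to 0.31 in pair 2. The cytochrome c gene cyc-2.1 averaged 1260 ± 150 RPKM under mxl-2 RNAi and 1011 ± 97.1 RPKM in the control (adjusted p = 0.131), and hpo-18, listed with the ATP synthase, averaged 675 ± 52.6 and 492 ± 78.8 RPKM (adjusted p = 0.145; SD, n = 4 each). Of 33 proteasome genes 16 (48.5%) were higher and 1 (3.03%) lower in 4 of 4 pairs, with a median of 0.09 (0.0105 in pair 3) and 0 called. The lower one was pas-6, a subunit of the core ring, at 92.6 ± 11.1 RPKM under mxl-2 RNAi and 151 ± 22.7 RPKM in the control (adjusted p = 0.0686), while pbs-1, of the same core, averaged 131 ± 5.56 and 112.5 ± 5.72 RPKM (SD, n = 4 each; adjusted p = 0.219). Of 78 cytosolic ribosomal protein genes 21 (26.9%) were higher and 0 lower in 4 of 4 pairs, with a median of 0.08 (-0.01 in pair 2). The same shares of all genes stand beside the proteasome and ribosomal lists. Members of a list are not independent of each other, and these counts carry no test.

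Detoxification and stress lists were counted in the same way, beside 11.7% of all genes higher and 13.2% lower in 4 of 4 pairs. Of 45 glutathione S-transferase genes 13 (28.9%) were higher and 2 (4.44%) lower in 4 of 4 pairs, with a median log2 fold change of 0.20, 1 called higher (0.0636% of all genes were) and 6 higher with an adjusted p under 0.1 (0.787% of all genes were). In this list gst-4, known as a reporter of oxidative stress, averaged 349 ± 62.01 RPKM under mxl-2 RNAi and 248 ± 31.9 RPKM in the control (SD, n = 4 each; adjusted p = 0.0657). Of 58 cytochrome P450 genes 1 was called higher (median 0.12), and of 34 genes of peroxide removal and thiol redox 0 were called, with 12 (35.3%) higher and 3 (8.82%) lower in 4 of 4 pairs. Of 73 cuticle collagen genes 1 was called lower (median 0.03), of 83 of fatty acid and lipid metabolism 1 lower (0.05), of 66 of innate immunity 1 higher (-0.07), and of 36 of glycolysis and sugar metabolism 1 lower (0.03). Beside these lists, 0.127% of all genes were called lower and 0.0636% higher, and a single call in a list carries no test. The trehalose synthase gene tps-2, in the sugar list, averaged 73.1 ± 11.99 RPKM under mxl-2 RNAi and 132 ± 11.7 RPKM in the control, without overlap (SD, n = 4 each; adjusted p = 0.0548).

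No member was called in the lists of C-type lectins, transthyretin-related proteins, neuron genes and neuropeptides with insulin-like peptides, where 0.191% of all genes were. The shares below stand beside 13.2% of all genes lower and 11.7% higher in 4 of 4 pairs. Of 95 C-type lectin genes 22 (23.2%) were lower and 7 (7.37%) higher in 4 of 4 pairs (median -0.07), and of 48 transthyretin-related genes 14 (29.2%) were lower and 2 (4.17%) higher (median -0.11). Of 36 neuron genes 7 (19.4%) were lower and 3 (8.33%) higher (median -0.10), beside neuron markers whose sums are given above, and of 103 neuropeptide and insulin-like peptide genes 6 (5.83%) were lower and 7 (6.8%) higher (median -0.04). The peptide gene nlp-27 averaged 1807 ± 195 RPKM under mxl-2 RNAi and 1297 ± 117 RPKM in the control (adjusted p = 0.0665), and the insulin-like gene ins-19 averaged 6.51 ± 3.7 and 16.7 ± 9.96 RPKM (SD, n = 4 each; adjusted p = 0.0753). Among 33 DAF-16 target genes 5 were higher and 6 lower in 4 of 4 pairs (median -0.12), and among 37 genes of the RNAi pathway 4 were higher and 1 lower (median 0.01), with 0 called in both.

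**Figure D5:**
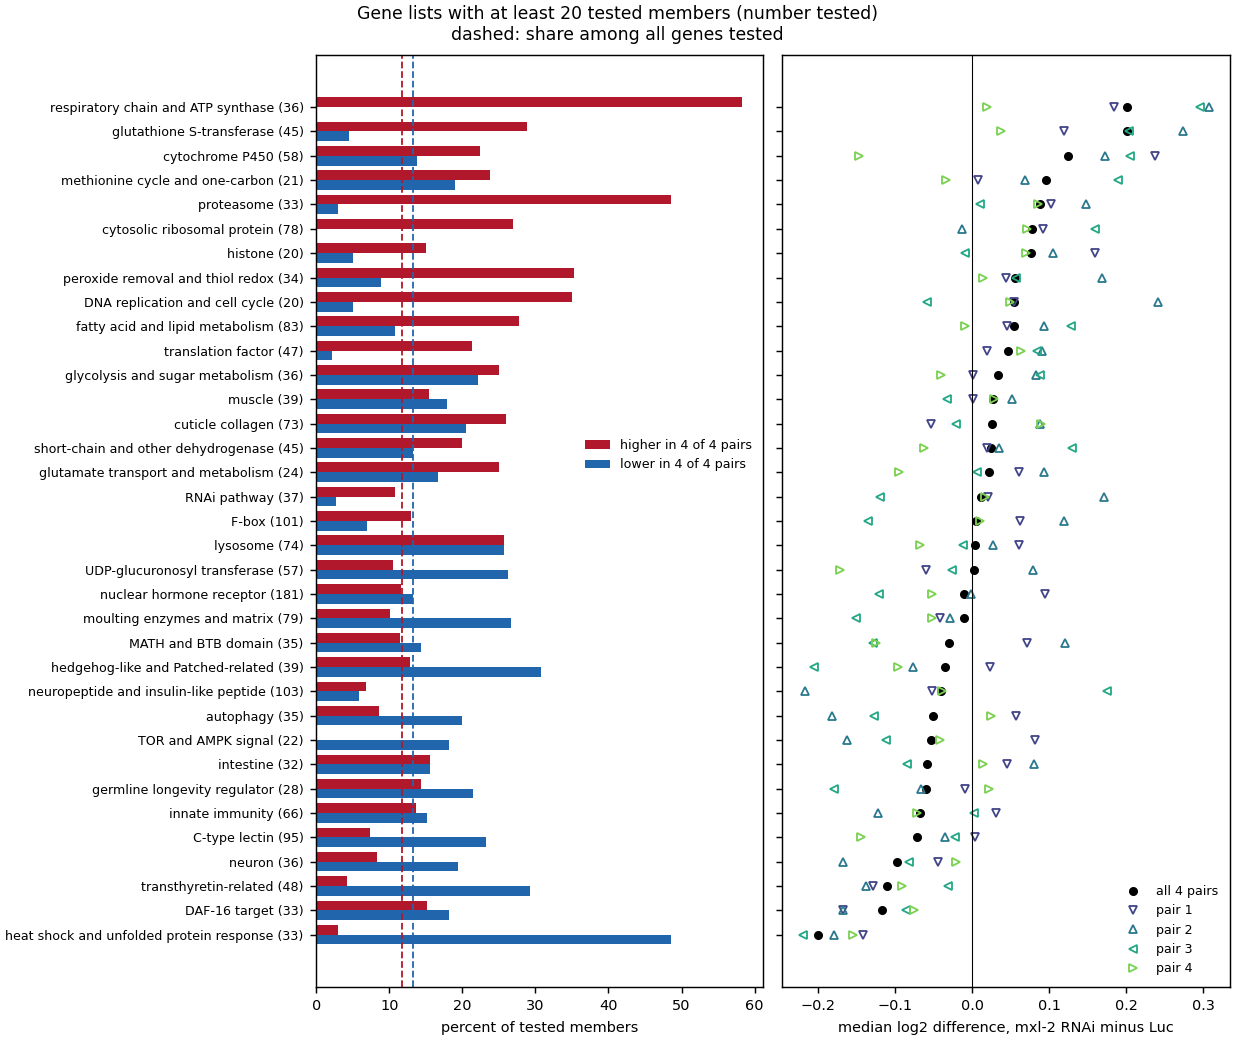
Left, percent of tested members of each gene list that were higher (red) or lower (blue) in mxl-2 RNAi than in Luc in 4 of 4 pairs, with dashed lines at the shares among all genes, 11.7% and 13.2%. Right, the median log2 difference of each list over all pairs (black) and in each pair (open triangles), in lists with at least 20 tested members; the heat shock list has all 4 pair medians below 0 and the respiratory chain list all 4 above 0.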

How the data were processed

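Whole-body RNA of worms was sequenced in 16 libraries. Per the labels, worms were fed HT115 bacteria with L4440, RNA was purified on columns and libraries followed standard Illumina protocols. The authors deposited RPKM values per library in tables that each set groups side by side, per the file headers. The submitters' processing notes name bcl2fastq, TopHat2 2.1.1 and GRCh38, a human build, so the worm build is not settled, and the counting tool and strand setting are not given in the sources used here. Coordinates are those of Ensembl release 115 of WBcel235, matched by name for 38832 symbols and 2309 sequence names, with 907 names unmatched. The deposited fold changes, p-values and false discovery rates were not used.

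The whole reads behind the RPKM values were recovered for 25332 of 25332 loci above 0 (tolerance 0.001). Of the coding lengths found, 91.9% are multiples of 3. Without molecular identifiers reads are not counts of separate molecules, and read numbers cover counting error only.

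The main test was limma 3.58.1 (R 4.3.3) on log2(RPKM + 1), with a pseudocount of 1, a floor of 1 on the mean RPKM of the 8 libraries, the replicate number as block, lmFit and eBayes with trend and robust variances, 2-sided, with Benjamini-Hochberg adjustment over all genes tested. Fold changes on this scale understate the change of genes with few reads. All adjusted p-values in the text come from this test unless another is named. The numbers in the titles paired the samples. Deviations from the group means correlated at 0.2 to 0.647 between libraries of the same number and at -0.533 to 0.186 between others. Deviations within a group sum to 0, so high values for the same number push the others down, and this contrast is in part built in. The main fit was also run on simulated reads with known changes. Those reads had the same spread setting for every gene and no library set far off, so that run does not show how firm the calls here are. Other fits changed the block, pseudocount, filter, scaling, variance model, libraries fitted and pairs kept, and ran voom on the recovered reads.

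Named genes were mxl-2, mml-1 and 5 genes named for the study's subject, slcf-2, the called coding genes (at most 15 in each direction) that moved alike in 4 of 4 pairs, and from each of 46 gene lists up to 4 called members or, with none called, up to 2 of lowest p. The comparison, members and lists were chosen with earlier results of these data known. Promoter and protein sequences were not used here.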

Additional observations from a re-analysis of the deposited data

Results flagged for a closer look

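Over the genes named above, 266 sets of 4 libraries of 1 group and 1 gene were examined for a library that stood apart, by the gap to its nearest neighbour over the range of the group (above Dixon's critical value for 4 values). Of these 27 stood apart. Chance flags about 1 in 20 where values are normal and sets are independent. RPKM values without a log need not be normal, and the genes share libraries, so the 27 cannot be set against that rate. No explanation was tested.

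Among genes of the Myc and Mondo network, mxl-2 stood at 733 RPKM in mxl-2 RNAi replicate 3, where the other libraries of the group held 29.3 to 90.7, and at 308 RPKM in mml-1 RNAi replicate 3, against 25.4 to 26.98 in the others. The gene mml-1 stood at 91.5 RPKM in mml-1 RNAi replicate 2, against 22.9 to 28.9, and mxl-3 at 342 RPKM in mxl-2 RNAi replicate 1, against 69.8 to 112.08.

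Replicate 1 of mxl-2 RNAi also stood apart in cnc-2 (553 RPKM, against 127 to 198 in the others), cnc-4 (1486 RPKM, against 311 to 431), dct-1 (98.8 RPKM, against 27.7 to 34.9), F15E6.10 (28.997 RPKM, against 2.82 to 4.74) and cht-1 (5.38 RPKM, against 0.0665 to 0.447). In the same group F36H12.3 was high in replicate 4 (0.594 RPKM) and hlh-30 low in replicate 3 (48.8 RPKM, against 72.1 to 76.9).

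In the mml-1 RNAi group, D2023.1 (44.4 RPKM), F45D3.3 (193 RPKM) and ugt-25 (92.8 RPKM) were high in replicate 1, nlp-27 (1935 RPKM) in replicate 2, and ugt-12 (54.6 RPKM), F36H12.3 (1.7 RPKM), gfat-1 (82.4 RPKM) and ins-19 (32.3 RPKM) in replicate 4, while ugt-11 (15.1 RPKM) was low in replicate 3. In the Luc control of glp-1 worms, F49F1.5 (10.996 RPKM), gst-24 (87.1 RPKM) and gst-20 (292 RPKM) were high in replicate 2, D2023.1 (48.8 RPKM) and cnc-4 (676 RPKM) were high in replicate 1, hsp-3 (322 RPKM) was low in replicate 1, and ugt-37 (0.352 RPKM) was low in replicate 2.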

How the results depend on the processing

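Counts of calls moved widely with the settings. Genes called higher and lower under mxl-2 RNAi (8 and 16 in the report) numbered 2 and 11 with no replicate block, 38 and 62 with a mean RPKM of at least 5, 5 and 13 with median-ratio scaling, 12 and 26 with quantile scaling, 1 and 3 with neither trend nor robust variances, 0 and 0 with no filter on low values, 129 and 156 with voom on recovered reads and the block, and 117 and 177 in 1 fit of all 12 glp-1 libraries. Leaving out a pair gave 0 to 50 higher and 0 to 36 lower. Adjusted p under 0.1, chosen after seeing the data, gave 99 and 141. Of the 8 and 16, 2 and 6 were also called with no block, 7 and 15 with voom, and 0 and 0 without pair 3.

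Genes called under mml-1 RNAi (60) numbered 2 with no replicate block, 148 with a mean RPKM of at least 5, 36 with median-ratio scaling, 5 with neither trend nor robust variances, 0 with no filter, 415 with voom, 617 in the 12-library fit, 437 at an adjusted p under 0.1, and 0 to 242 without a pair. Setting mxl-2 RNAi against mml-1 RNAi, 0 were called in every fit. The cause of these shifts was not tested.

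Reversed values were uncalled. With quantile scaling skpo-3 had 0.0041 and mmcm-1 -0.0145. Leaving out a pair, hlh-30 ran from -0.128 to 0.0302, lgg-1 from -0.134 to 0.104, mmcm-1 from -0.0552 to 0.0515, pcca-1 from -0.0292 to 0.0171, pccb-1 from -0.0131 to 0.0462, F36H12.17 from -0.0296 to 0.114, cnc-5 from -0.638 to 0.0782 and cyp-34A6 from -0.0191 to 0.13.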
